A study of Canis lupus familiaris with 222 samples.

Results

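HER2 staining was compared with gene expression in spontaneous canine mammary tumors (CMTs), taking the tumors with the highest stain score (score 3) against those with the lowest (score 0). The members were chosen by the HER2 score in the sample labels, given there as a HercepTest score, among the tumors of the study's clinical list. There were 37 tumors with score 3 and 14 tumors with score 0, that is 51 of 222 libraries in all. A further 28 tumors with score 1 and 73 with score 2 were fitted in the same model, each tumor from a different dog. The labels gave the score as not applicable for 5 other tumors of the list.

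Poly(A) RNA from mammary tumors of female dogs and from adjacent normal mammary tissue was sequenced, and 1 FPKM value per Ensembl gene identifier and library was deposited. FPKM counts the sequenced fragments of a gene relative to the length of its transcript and to how many fragments the library had mapped. No dog was treated experimentally, and the groups differ by the diagnosis and stain of a tumor taken at surgery. The score 0 dogs were between 8 and 15 years old (ages from the labels, the unit from the study; median 12.5, n = 14), with 5 neutered and 9 intact. The score 3 dogs were between 7 and 16 (median 12, age given for 34 of 37), with 10 neutered and 27 intact. In the score 1 dogs the median age was 13 (range 7 to 17), and in the score 2 dogs 12 (range 2 to 19). The labels named 7, 10, 16 and 11 breeds for scores 0, 1, 2 and 3, and breed was neither matched nor fitted.

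HER2 is a receptor tyrosine kinase of the epidermal growth factor receptor family and is encoded by ERBB2. It binds no ligand of its own, pairs with other members of the family and signals through the PI3K-Akt and MAPK pathways. In human breast cancer ERBB2 is often amplified where the stain is strong, and the stain is scored by how complete and how intense the membrane labelling of tumor cells is. Estrogen receptor (ER) staining is summarised by the Allred score, which adds points for the share of stained nuclei and for their intensity.

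The tables used here do not pair the identifiers with gene names. ERBB2, ESR1, the other genes of the receptor family and of PI3K-Akt signalling, and the markers of cell types were therefore not analysed here, and the stain could not be set beside the transcript of its own gene. For the same reason only 4 identifiers are named below, without sequence or function.

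The tumors of the 2 scores differed in other clinical measures. ER staining was higher in score 3. The mean ER Allred score was 3.57 ± 1.74 (SD, n = 14; range 0 to 6) in score 0 and 6.51 ± 2.04 (SD, n = 37; range 2 to 8) in score 3, a difference of 2.94 points (two-sided permutation test, p = 8e-05, adjusted p = 0.0004 over 5 clinical comparisons). None of 14 tumors with score 0 and 26 of 37 with score 3 had an Allred score of 7 or 8. Scores 1 and 2 lay between them, with means of 4.75 ± 2.63 (SD, n = 28) and 6.27 ± 2.01 (SD, n = 73). Within malignant tumors alone the difference was 2.91 points (permutation p = 0.00254). The share of ER-positive tumors was 10 of 14 and 34 of 37, and did not pass the test (Fisher's exact test, two-sided, p = 0.0797, adjusted p = 0.0996).

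Histology also differed. Simple tumors, which hold 1 epithelial cell type, made up 3 of 14 tumors with score 0 and 25 of 37 with score 3. Complex tumors, in which myoepithelial cells also grow, were 5 and 10, mixed tumors, which also hold cartilage or bone, were 5 and 2, and other diagnoses were 1 and 0 (permutation test of the chi-square statistic, p = 0.00186, adjusted p = 0.00465). The share of simple tumors was 39.3% in score 1 and 52.1% in score 2, between the 21.4% of score 0 and the 67.6% of score 3. Surgery year differed as well. Of the score 0 tumors 7 were removed in 2016 and 7 in 2017, whereas 5, 25 and 7 of the score 3 tumors were removed in 2016, 2017 and 2018 (permutation test, p = 0.0116, adjusted p = 0.0194). By the grade in the labels, 9 of 14 tumors with score 0 and 29 of 37 with score 3 were malignant, with an odds ratio of 2.01 (Fisher's exact test, p = 0.309).

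**Figure D1:**
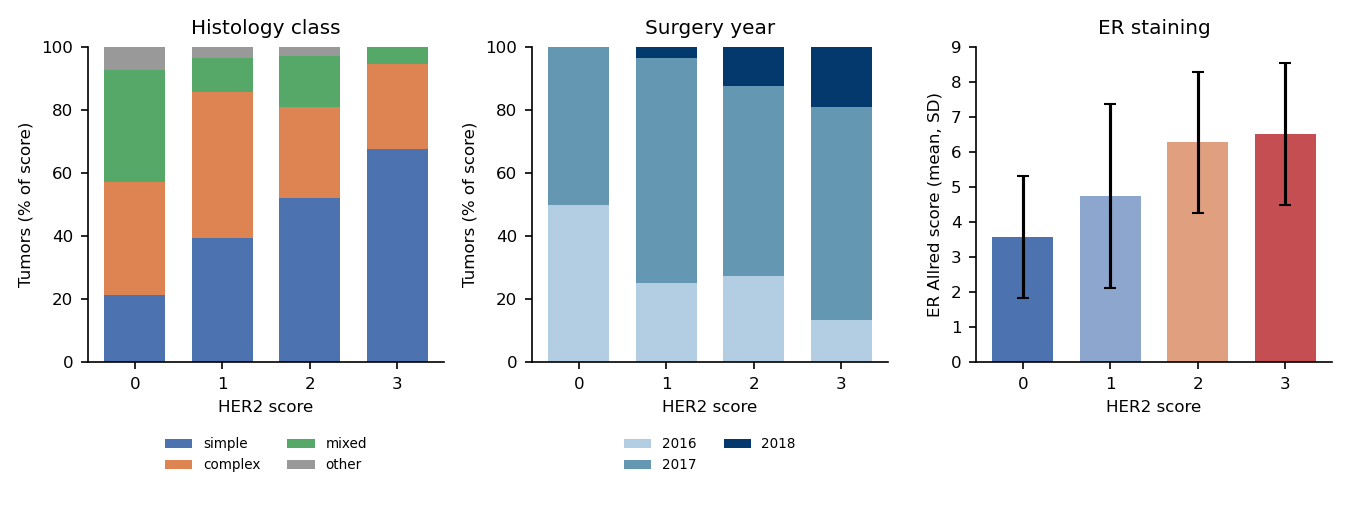
Clinical make-up of the tumors by HER2 score (14, 28, 73 and 37 tumors for scores 0 to 3), with the percentage of tumors by histology class (left) and by surgery year (middle), and the mean ER Allred score with its SD (right). Simple tumors were 21.4% of score 0 and 67.6% of score 3, and the mean ER score was 3.57 in score 0 and 6.51 in score 3.

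No difference between the libraries of the 2 scores passed the test in the measures that FPKM allows. Median FPKM over the tested identifiers was 6.61 (range 4.83 to 8.35) in score 0 and 6.91 (range 2.75 to 8.87) in score 3 (permutation test of the means, p = 0.385). The 10 most abundant identifiers held 20.5% (median) of all FPKM in score 0 and 19.6% in score 3 (permutation p = 0.79). The sum of FPKM was higher in score 3 before adjustment (permutation p = 0.0382, adjusted p = 0.153 over 4 measures). Read numbers behind single values are unknown. The study lists sequencing information for each library. Of this only the mapping rate was used, as a covariate, and it was not compared between the scores.

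Few expression differences between score 3 and score 0 passed the test. Of 14574 identifiers tested, 1 was called (0.00686% of those tested), and it was lower in score 3. A call required both a Benjamini-Hochberg adjusted p below 0.05 and a change of 1 or more on the log2(FPKM + 1) scale. Without the fold criterion 3 identifiers passed (0.0206%), all lower in score 3. At an unadjusted p under 0.05 there were 2029 identifiers (13.9%), 1106 higher and 923 lower. The median difference over all tested identifiers was 0.06 (log2), the median of its size was 0.17, and 91 identifiers were higher and 61 lower by a log2 difference of 1 or more. In these bulk samples, fewer cells of a type and less RNA per cell cannot be told apart.

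Malignancy as a covariate changed little. With it, 1 identifier was called (0.00686%) and 3 passed the adjusted p alone, the same ones as without it. The log2 differences moved by 0.012 in the median and by 0.05 or less for 95% of identifiers. Of the 2029 identifiers with an unadjusted p under 0.05, 1918 (94.5%) were also among the 2076 with malignancy in the model, and the direction changed for 0. The malignancy term itself called 10 identifiers in the same fit, 1 higher and 9 lower in malignant tumors.

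The identifier called was ENSCAFG00000010205, of an unnamed gene. In score 0 tumors its FPKM was between 9.89 and 112.3, with a median of 34.4 (mean 43.2 ± 29.8, SD, n = 14). In score 3 tumors it was between 0.81 and 52.6, with a median of 14.2 (mean 16.1 ± 11.5, SD, n = 37). The groups overlapped: 13 of 14 score 0 tumors lay above the score 3 median, 35 of 37 score 3 tumors lay below the score 0 median, and 3 score 0 tumors lay above every score 3 tumor. The log2 difference was -1.48 (SE 0.32), or 2.80-fold on this scale (limma, Benjamini-Hochberg adjusted p = 0.0294). With malignancy as a covariate it was -1.49 (SE 0.32, adjusted p = 0.032).

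Scores 1 and 2 had near-equal medians of ENSCAFG00000010205, between those of the outer scores. The median was 20.1 FPKM in score 1 (range 3.73 to 58.2, n = 28) and 20.0 in score 2 (range 2.34 to 137.8, n = 73), and the highest single tumor of all had score 2. The mean of score 2 was above that of score 1 by 0.04 (log2, SE 0.22). Score 1 was lower than score 0 by a log2 difference of -0.90 (SE 0.33) and score 3 lower than score 1 by -0.58 (SE 0.25), neither with an adjusted p under 0.05 (limma, adjusted p = 0.124 and 0.854).

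Within the clinical classes, the median of ENSCAFG00000010205 was lower in score 3 in each class with at least 2 tumors on both sides. Medians in score 0 and score 3 were 17.7 and 15.8 FPKM in benign tumors (n = 5 and 8), and 38.2 and 14.0 in malignant tumors (n = 9 and 29). All 9 malignant score 0 tumors were at 27.3 FPKM or more. The malignant minus benign difference of the contrast was -1.41 (log2, SE 0.69) and did not pass over all identifiers (limma, unadjusted p = 0.0432, adjusted p = 1). By surgery year the medians were 37.5 and 26.4 FPKM in 2016 (n = 7 and 5) and 28.9 and 15.0 in 2017 (n = 7 and 25), and the 7 score 3 tumors of 2018 had a median of 11.4. Fitted within 1 year, the log2 difference was -1.04 (SE 0.57, adjusted p = 0.815) in 2016 and -1.33 (SE 0.42, adjusted p = 0.427) in 2017.

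Surgery year moved with this result. Beside the score, tumors of 2018 were lower than those of 2016 in ENSCAFG00000010205 by -0.94 (log2, SE 0.29; limma, adjusted p = 0.04), and none of the score 0 tumors was from 2018. With year as a covariate the log2 difference of score 3 and score 0 was -1.23 (SE 0.32, limma, unadjusted p = 0.000157, adjusted p = 0.327) and 0 identifiers were called. With histology class it was -1.53 (SE 0.33, limma, unadjusted p = 9.11e-06, adjusted p = 0.117), again with 0 called. Without a covariate the unadjusted p was 6.06e-06 (limma). Beside histology class the adjusted p thus rose while the difference and its unadjusted p changed little. With the ER Allred score as a covariate it was -1.51 (SE 0.34, adjusted p = 0.0246), and 12 identifiers were called, all lower in score 3. Within malignant tumors 7 were called, all lower, and the difference was -1.90 (SE 0.41, adjusted p = 0.02). The part of year and histology in the contrast was not tested beyond these fits.

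**Figure D2:**
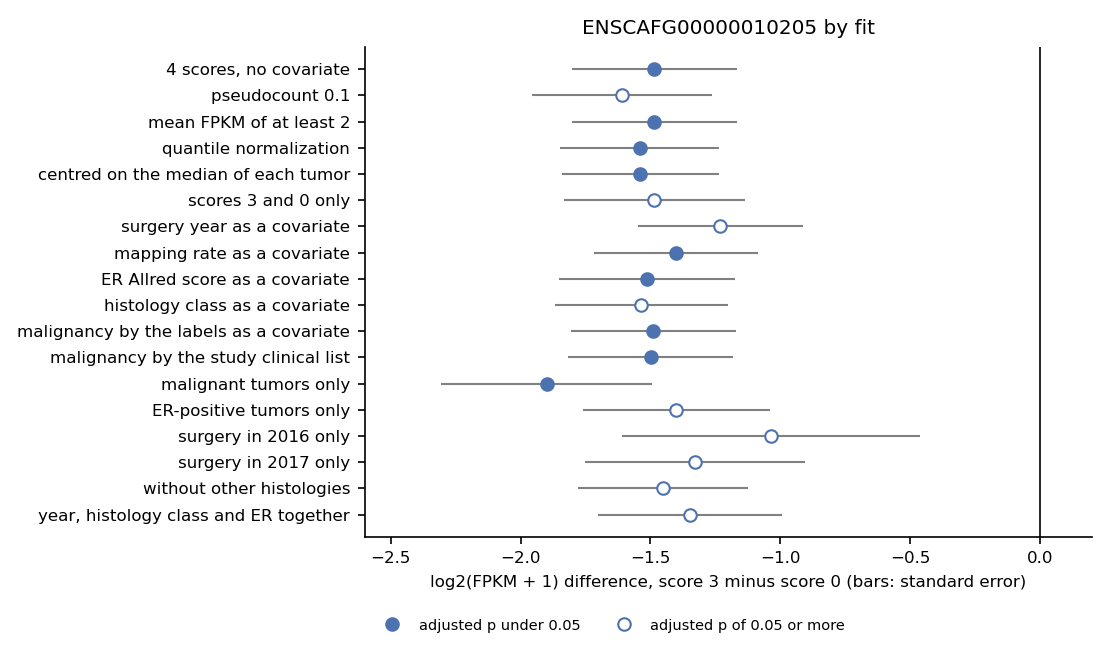
Difference of ENSCAFG00000010205 between HER2 score 3 and score 0 (log2(FPKM + 1), score 3 minus score 0) in 18 fits that differ in scaling, covariates or tumors, with standard errors as bars. All 18 estimates lie below 0, between -1.90 and -1.04, and filled points mark the fits with an adjusted p under 0.05.

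The other 2 identifiers with an adjusted p under 0.05 differed by less than the fold criterion and were weakly expressed. The mean FPKM of the first was 2.07 in score 0, 0.94 in score 1, 1.06 in score 2 and 0.84 in score 3 (log2 difference of 3 and 0 -0.63, SE 0.12, adjusted p = 0.0188). That of the second was 4.81, 1.83, 2.54 and 1.66 (log2 difference -0.97, SE 0.20, adjusted p = 0.0294). In both, the means of scores 1, 2 and 3 were below that of score 0. The next smallest adjusted p was 0.0931.

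That value was shared by ENSCAFG00000014369 and another identifier with a log2 difference of -1.15 (SE 0.27), neither of them called. The FPKM of ENSCAFG00000014369 was between 7.13 and 19.8 in score 0, with a median of 11.6. In score 3 it was between 1.78 and 14.8, with a median of 7.76. The log2 difference was -0.67 (SE 0.16). Again 13 of 14 score 0 tumors lay above the score 3 median, and 4 lay above every score 3 tumor. Medians in scores 1 and 2 were 7.33 and 8.34, that of score 1 being below that of score 3. Score 1 was lower than score 0 by a log2 difference of -0.62 (SE 0.16, limma, adjusted p = 0.0457), short of the fold criterion.

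In the fit of the 4 scores without a covariate, no identifier was called as higher in score 3. The 2 with the smallest p in that direction at a mean of at least 5 FPKM are given here. ENSCAFG00000000530 had a median of 12.5 FPKM in score 0 (range 7.00 to 15.1) and 16.1 in score 3 (range 8.69 to 28.2), and none of the 14 score 0 tumors lay above the score 3 median. The log2 difference was small, 0.42 (SE 0.10, limma, adjusted p = 0.115), and scores 1 and 2 had medians of 15.9 and 15.2. ENSCAFG00000014582 had a median of 1.95 FPKM in score 0 (range 0 to 7.86) and 4.80 in score 3 (range 0.60 to 64.7). Its log2 difference was 1.19 (SE 0.30, adjusted p = 0.115), 13 of 14 score 0 tumors lay below the score 3 median, and scores 1 and 2 had medians of 5.17 and 3.67. With quantile normalization or after centring on each tumor's median it was called as higher in score 3 (limma, adjusted p = 0.0391 and 0.0454). In 15 of 17 alternatives it was not called. Between scores 1 and 0 its log2 difference was 1.18 (SE 0.32, limma, adjusted p = 0.0481), which met the criteria of a call.

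**Figure D3:**
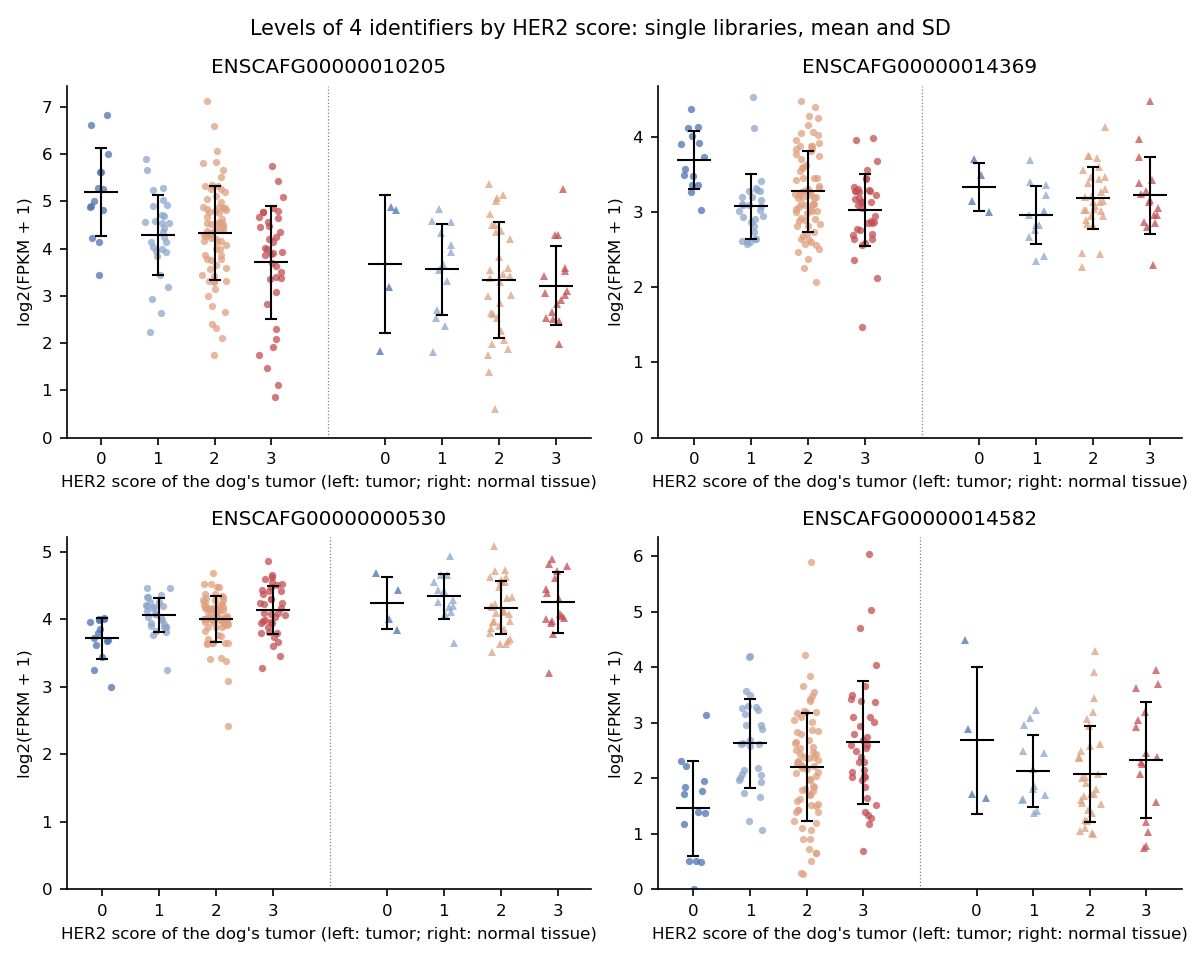
Levels of 4 identifiers as log2(FPKM + 1) by the HER2 score of the dog's tumor, in tumors (circles, left) and in adjacent normal tissue of the same dogs (triangles, right; 4, 13, 30 and 16 libraries). Points are single libraries and black bars are means with SD. Score 0 tumors stand above the other scores in the upper panels and below them in the lower panels, with overlap.

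Adjacent normal tissue was sequenced for 63 of the scored dogs, 4 of them with score 0 and 16 with score 3. In normal tissue of these dogs 0 of 14616 identifiers were called between scores 3 and 0 (limma; 2598 identifiers, 17.8%, at an unadjusted p under 0.05), and the median difference over all identifiers was -0.12 (log2). For ENSCAFG00000010205 the difference in normal tissue was -0.46 (log2, SE 0.60, adjusted p = 0.71), with 4 score 0 dogs behind it. In score 0 dogs, tumor and normal tissue had 17.7 and 28.4 FPKM in CMT-162, 112.3 and 27.1 in CMT-188, 38.2 and 2.57 in CMT-201, and 48.4 and 8.10 in CMT-242. The tumor was higher in 3 of these 4 dogs, and in 13 of 16 dogs with score 3, where the median log2 difference of tumor and normal was 0.51. Taken within dogs, the mean difference of tumor and normal tissue was 1.81 (log2) in score 0 and 0.54 in score 3, which differed by -1.27 (SE 0.70, limma, unadjusted p = 0.0762, adjusted p = 0.747). For ENSCAFG00000000530 the tumor was lower than the normal tissue in 4 of 4 dogs with score 0 and in 12 of 16 with score 3.

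The position of scores 1 and 2 was then measured on a scale with the score 0 mean at 0% and the score 3 mean at 100%. The contrast that chose the identifiers also fixes both ends of this scale, so the positions are a description. With 14 tumors in score 0 and 37 in score 3, identifiers chosen in this way would place unrelated tumors at 72.5% even if no score differed. For the 3 identifiers with an adjusted p under 0.05, score 1 lay at 87.1% and score 2 at 63.7% (medians), and in none of the 3 did the means follow the order of the scores. For the 100 identifiers with the smallest p, 29 higher and 71 lower in score 3, score 1 lay at 85.2% and score 2 at 67.2%. The first lay above the 72.5% of no difference and the second below it. The means followed the order of the scores in 12 of 100.

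**Figure D4:**
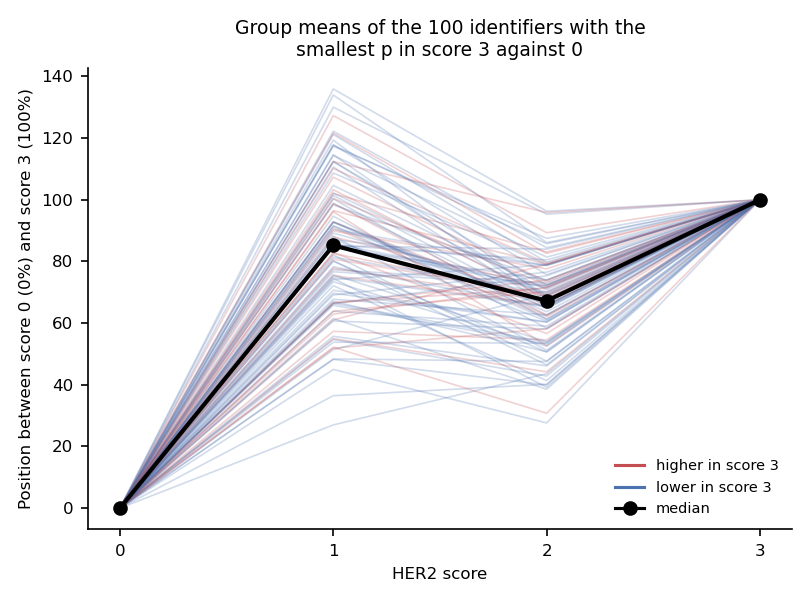
Group means of the 100 identifiers with the smallest p in score 3 against 0, each scaled so that its score 0 mean is 0% and its score 3 mean is 100% (vertical axis), by HER2 score. The black median line is at 85.2% in score 1 and 67.2% in score 2, and the choice of identifiers alone would place unrelated tumors at 72.5%.

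The tumors of scores 1 and 2 do not enter the means of score 3 against 0, though the spread was estimated once from all 4 groups. In score 2 against 1 (limma), 0 identifiers were called (0%) and 519 (3.56%) had an unadjusted p under 0.05. Of the 100 identifiers above, 12 moved from score 1 to score 2 in the direction of score 3 against 0, and 0 of these had an unadjusted p under 0.05. Of the 2029 identifiers, 316 (15.6%) moved that way and 1 had an unadjusted p under 0.05, beside 4424 (30.4%) and 56 of all 14574 tested. A straight-line trend over the 4 scores called 0 identifiers (limma; 864, 5.93%, at an unadjusted p under 0.05).

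The contrasts with score 0 held more small p-values than those without it. In score 1 against 0, a contrast chosen after the values were seen, 5 identifiers were called (0.0343%), 3 higher and 2 lower in score 1. The adjusted p alone gave 93 identifiers (0.638%), 15 higher and 78 lower. At an unadjusted p under 0.05 there were 2880 (19.8%) in score 1 against 0 and 1319 (9.05%) in score 2 against 0, both with the same 14 score 0 tumors as score 3 against 0. Score 3 against 1 gave 846 (5.8%) and score 3 against 2 gave 742 (5.09%), with 0 called in each (limma). With malignancy in the model the shares were 19.9% for score 1 against 0, 9.68% for score 2 against 0, 3.29% for score 2 against 1, 4.66% for score 3 against 1 and 4.69% for score 3 against 2. With surgery year or with histology class as a covariate, 0 identifiers were called in score 1 against 0.

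**Figure D5:**
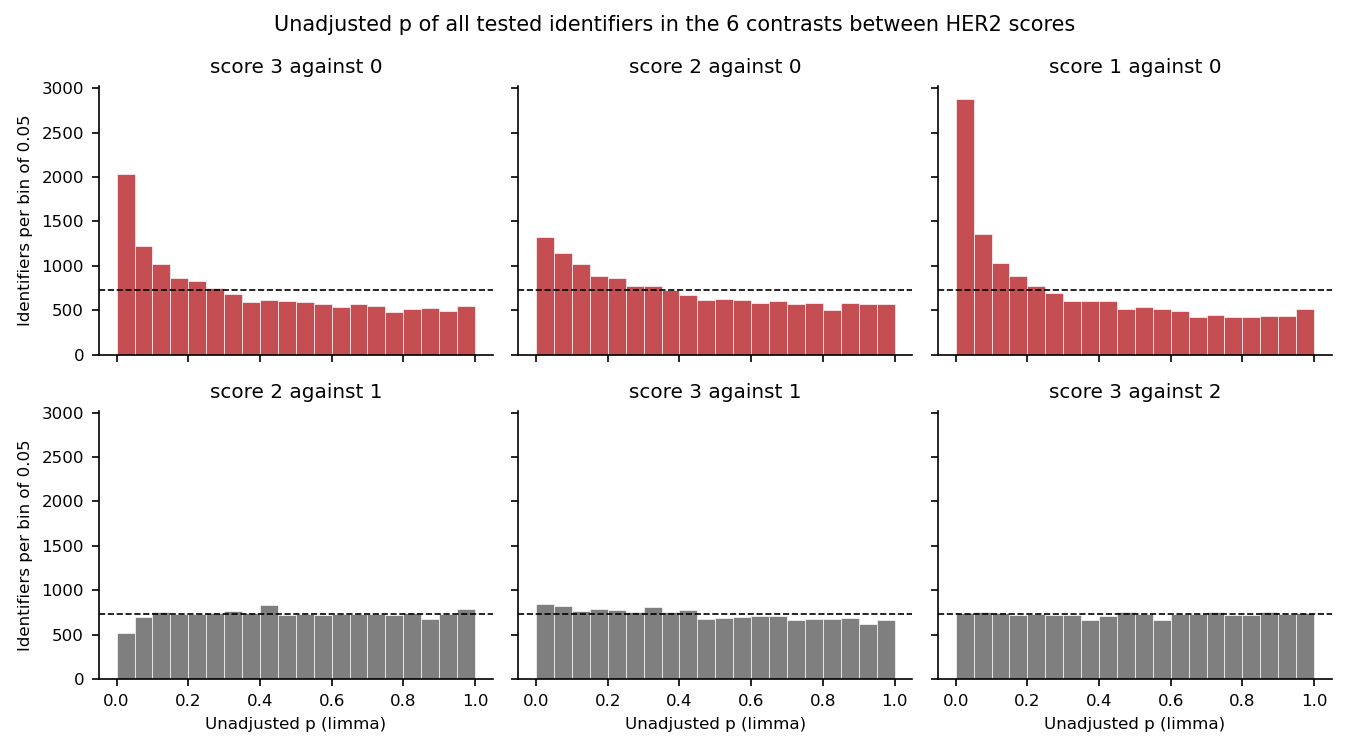
Number of identifiers per bin of the unadjusted limma p, in bins of 0.05, for the 6 contrasts between HER2 scores over 14574 identifiers. The dashed line is the level of an even spread, and the first bin holds 2029, 1319 and 2880 identifiers in the contrasts with score 0 (red) and 519, 846 and 742 in the others (grey).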

How the data were processed

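The authors mapped RNA-seq reads to CanFam3.1 with TopHat2 2.0.9 (FastQC 0.10.1 for quality, per the submitters' processing notes) and calculated FPKM with Cufflinks 2.1.1. The deposited FPKM table held 24580 Ensembl identifiers in 222 libraries, with 0 columns unused. HER2 score, ER Allred score, ER status, grade, diagnosis and surgery date were taken from the labels. The clinical list of the study decided which tumors entered, so that CMT-351, which is not on it, was left out. Malignancy was taken from the grade in the labels and differs from the clinical list in 9 scored tumors.

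Here log2(FPKM + 1) was fitted with limma 3.58.1 in R 4.3.3 (intensity trend, 4 scores as groups, two-sided) over 14574 identifiers (mean FPKM 0.5 or more), and p-values were adjusted by Benjamini-Hochberg. An identifier was called below an adjusted p of 0.05 when its log2 difference also reached 1. Identifiers named were the 2 in each direction with the largest difference among those called that reached a mean of 5 FPKM in the higher group, filled by smallest p where fewer were called. Clinical measures were compared with 100000 permutations or Fisher's exact test (scipy 1.17.1). Alternatives changed scaling, filter, covariates and tumors. The comparison, tests and lists were chosen with earlier results of these data known. Lists that need gene names were not analysed here.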

Additional observations from a re-analysis of the deposited data

Results flagged for a closer look

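In ENSCAFG00000014582, the benign score 3 tumor CMT-017 had 64.7 FPKM, far from the next highest of the 8 benign tumors of that score at 5.91. This was 1 of 32 groups of 4 to 10 libraries that were examined for a far library, and chance gives about 1 in 20. The groups were counted over the 4 named identifiers, and some were of normal tissue. Groups by year and by malignancy shared tumors, so the 32 are not independent. The contrast of score 3 and 0 differed between tumors removed in 2017 and in 2016 for 1 identifier (limma, smallest adjusted p = 0.00947). At an unadjusted p under 0.05 there were somewhat more identifiers for this year difference than an even spread of p-values gives. Between malignant and benign tumors the contrast differed for 0 identifiers (limma, adjusted p). Of 14574 tested, 462 had an unadjusted p under 0.05, fewer than an even spread gives.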

How the results depend on the processing

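Scores 3 and 0 come from different dogs. A paired comparison, of tumor minus normal tissue within 4 score 0 and 16 score 3 dogs (replicate block, chosen after seeing the data), called 0 identifiers (limma; 1007 of 14703, 6.85%, at an unadjusted p under 0.05). In score 3 against 0, 1 identifier was called; the count was 6 with quantile normalization (1 higher, 5 lower), 8 after centring on each tumor's median (1 higher, 7 lower), 2 with mapping rate, 12 with ER Allred score, 7 in malignant tumors and 3 by adjusted p alone. It was 0 with scores 3 and 0 only, with year, with histology class, with year, histology and ER together (chosen after seeing the data), in ER-positive tumors, in 2016 and without other histologies. With malignancy in the model, 1 was called, against 2 without a filter on low values, 10 with quantile normalization, 8 after centring, 0 with scores 3 and 0 only, 0 with year, 2 with mapping rate, 10 with ER, 0 with histology, 0 without other histologies and 3 by adjusted p alone. Score 2 against 1 gave 0 in 13 alternatives and the trend 0 in 12 of 13, with 4 beside ER. Score 1 against 0, with 5 called, gave 13 with quantile normalization, 3 with ER, 0 with year, 0 with histology and 93 by adjusted p alone. The ER difference of 2.94 points, taken as the share of ER-positive tumors, was 20.5 percentage points and did not pass (Fisher's exact test, p = 0.0797). ENSCAFG00000010205 kept its direction in 17 of 17 alternatives on tumors alone but kept its call in 8, with an adjusted p between 0.0139 and 0.815. At a pseudocount of 0.1 and in 2017 alone 1 identifier was called, but not this one (adjusted p = 0.0557 and 0.427). For ENSCAFG00000000530 the adjusted p (limma) was 0.035 with quantile normalization, 0.0384 after centring and 0.0388 with mapping rate, and up to 0.867 elsewhere. For ENSCAFG00000014369 it was 0.0194 with mapping rate and up to 0.815 elsewhere. Both were called in 0 of 17 alternatives. The cause of these changes was not tested.

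Leaving out 1 tumor of score 0 or 3 at a time gave 0 to 5 calls in score 3 against 0 and 0 to 6 with malignancy. Score 1 against 0 was refitted only without each of the 14 score 0 tumors, and gave 0 to 33 calls. Score 1 tumors were not left out. Without CMT-063, CMT-077, CMT-129, CMT-188 or CMT-201 of score 0, or CMT-153, CMT-402, CMT-603, CMT-613, CMT-644 or CMT-756 of score 3, 0 identifiers were called. Without CMT-102 there were 5, without CMT-060 or CMT-245 3, and without CMT-074, CMT-099 or CMT-538 2. ENSCAFG00000010205 lay between -1.62 and -1.36 (log2) and lost its call without 7 of 14 score 0 and 6 of 37 score 3 tumors. With 14 tumors in score 0 and the read numbers behind single values unknown, smaller differences may not have been detectable.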

Other observations

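The 5 tumors without a HER2 score were kept out of the groups. Most were osteosarcomas, beside a fibrosarcoma and a carcinoma in a benign mixed tumor. In them ENSCAFG00000010205 was between 1.61 and 81.6 FPKM with a median of 4.88, and ENSCAFG00000014582 was between 0.58 and 36.4 FPKM with a median of 2.47. Beside the HER2 score, the ER Allred score was associated with 1348 identifiers at an adjusted p under 0.05 (limma, 9.25% of those tested). Of these 0 reached a log2 difference of 1 per point. Tumors ranged from 0 to 8 points, so this criterion was far stricter than for a difference between classes. The count of 0 cannot be set beside the calls that follow. In a separate fit with histology class beside the score, complex against simple tumors gave 66 called identifiers of 14574 tested. Of these 64 were higher and 2 lower in complex tumors. In a further fit with surgery year beside the score, 2018 against 2016 gave 83 of 14574, of which 65 were higher and 18 lower. By adjusted p alone (limma) these terms gave 595 (4.08%) and 841 (5.77%) identifiers.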
